A study of Drosophila melanogaster with 1908 samples.

Results

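The nuclei described here came from whole Drosophila melanogaster embryos and carried RNA of the gut endoderm regulators GATAe, fkh and Ptx1. The study sorted nuclei of wild-type Canton S embryos (no mutation or treatment) into reverse transcription wells by collection window, sequenced their polyadenylated RNA by combinatorial indexing (sci-RNA-seq3) in 7 experiments, and assigned every nucleus an age with a neural network trained on the collection windows. A nucleus was selected when its inferred age lay between 6 and 18 h after egg laying and it held at least 1 unique molecular identifier (UMI, a tag that counts RNA molecules) in at least 2 of the 3 genes. This gave 3576 selected nuclei of 295594 in that age range, which was 1.21% (95% exact binomial interval 1.17 to 1.25%), out of 547805 nuclei in the whole table. The comparison nuclei were the 251485 nuclei of the same ages with no UMI of any of the 3 genes, and a further 40533 nuclei held a UMI of exactly 1 of them. The genes of the rule chose the nuclei, so their levels are given as a description with no test. Experiments 1 and 10 gave 1896 and 1222 selected nuclei, experiment 3 gave 11.6% of them and experiment 2 gave 29. Experiments 11, 4 and 12 gave 9, 4 and 2, which were too few to sum.

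The fly midgut forms from an anterior and a posterior endoderm primordium that migrate toward each other, enclose the yolk and become an epithelium of enterocytes, enteroendocrine cells and progenitors. In this lineage the GATA factor srp specifies endoderm and the related factor GATAe maintains its differentiation, while the homeobox genes lab and dve pattern the middle midgut. The differentiated midgut epithelium seals its cells with smooth septate junctions rather than with the pleated septate junctions of ectodermal epithelia. The forkhead factor fkh is also active in foregut, hindgut and salivary gland, and the paired-like homeobox gene Ptx1 is also active in neurons and muscle, so UMIs of these genes are not particular to the midgut.

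All 3 rule genes lie on chromosome 3R (Ensembl annotation of the assembly dm6), with GATAe at chr3R:16009105-16019133, fkh at chr3R:28580976-28585264 and Ptx1 at chr3R:30912754-30930682. They were sparse in these nuclei. Among all nuclei aged 6 to 18 h, 3.69% held a UMI of GATAe, 8.90% a UMI of fkh and 3.62% a UMI of Ptx1. Of the selected nuclei that held the gene, 88.1% had a single UMI of GATAe, 56.9% a single UMI of fkh and 69.01% a single UMI of Ptx1, so that 1 molecule often decided whether a nucleus was selected. Most selected nuclei, 3338, held exactly 2 of the genes, and 6.66% held all 3. GATAe with fkh was seen in 1256 nuclei, fkh with Ptx1 in 1197 and GATAe with Ptx1 in 885.

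The share of nuclei that met the rule was 0.742% at 6 to 8 h, 1.14% at 8 to 10 h, 1.65% at 10 to 12 h, 1.20% at 12 to 14 h, 1.18% at 14 to 16 h and 1.42% at 16 to 18 h of inferred age. The 10 to 12 h value rested in part on experiment 10, where 3.36% of nuclei met the rule against 1.34% in experiment 1 and 1.10% in experiment 3. Within the selected nuclei the 3 genes followed different courses, but their shares are tied by the rule. As 93.3% of selected nuclei held exactly 2 of the genes, a lower share of 1 gene goes with a higher share of another. The share with an fkh UMI in experiment 1 was 91.9% at 6 to 8 h and 56.6% at 12 to 14 h. Ptx1 in the same experiment stood at 46.3% and 79.3% of selected nuclei in those bins, and its level went from 555.1 to 2710 CPM (UMIs of the gene scaled to a fixed total of UMIs per sum). GATAe reached its highest level in experiment 1 at 12 to 14 h, with 1521 CPM, against 444.9 CPM at 8 to 10 h. Most selected nuclei with GATAe or Ptx1 held a single UMI of the gene, so these levels depend on depth. The median depth of selected nuclei in experiment 1 was 2.16 times that of comparison nuclei at 8 to 10 h. It was 1.35 times at 6 to 8 h and 1.24 times at 12 to 14 h. The part of depth and of the rule in the courses of GATAe and Ptx1 was not tested. In experiment 3 the fkh share was 86.4% at 6 to 8 h and 40.9% at 12 to 14 h. In experiment 10 it was 100% and 67.02% in those bins, and 74.8% at 14 to 16 h.

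Depth separated the selected from the comparison nuclei. The median was 646.5 UMIs per selected nucleus, 1.89 times that of a comparison nucleus, while nuclei with 1 of the genes had a median 1.23 times that of a comparison nucleus. Of nuclei with 250 to under 400 UMIs, 0.541% met the rule, against 1.23% at 400 to under 800, 3.14% at 800 to under 1600 and 13.3% at 1600 or more UMIs. The 954 selected nuclei with 1600 or more UMIs were 26.7% of the selected nuclei but held 70.4% of their UMIs. In the comparison nuclei the same depth class made up 1.37% of nuclei and 8.30% of UMIs. These deep nuclei also carried markers of unrelated cell types. At least 2 neuron genes and at least 2 somatic muscle genes were found in 38.7% of them, against 14.2% of comparison nuclei of that class. Depth was not equal within this class. Its 954 selected nuclei held 3666102 UMIs and its 3437 comparison nuclei 9144694, so the selected nuclei were the deeper ones. In the class of 250 to under 400 UMIs the same combination was seen in 0.201% of selected and 0.616% of comparison nuclei. The authors removed doublets before deposit, and what part doublets, free RNA or truly deep nuclei have in the deep class was not tested.

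**Figure D1:**
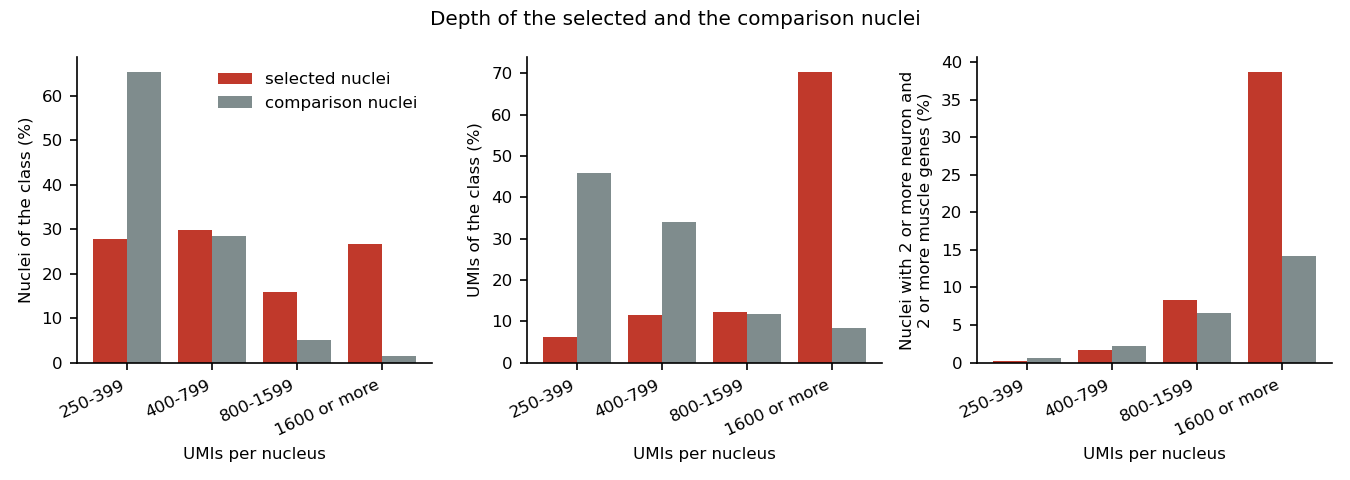
Depth of the selected (red) and comparison nuclei (grey) in 4 classes of UMIs per nucleus, as the percent of nuclei of the class, the percent of UMIs of the class, and the percent of nuclei with at least 2 neuron and at least 2 somatic muscle genes. The selected nuclei with 1600 or more UMIs held 70.4% of the selected UMIs, and 38.7% of them carried both marker sets.

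The label endoderm and midgut was checked against markers of the midgut and of other tissues, counting nuclei with at least 2 genes of a list. For the smooth septate junction (Ssk, mesh, Tsp2A and hoka, which the files list as CG13704) this was 8.95% of selected and 0.785% of comparison nuclei. After every nucleus was thinned to 250 UMIs the shares were 2.24% (interval 1.78 to 2.78%) and 0.403% (interval 0.378 to 0.428%). The midgut transcription factors gave 7.49% and 2.75% after thinning. By contrast, thinned shares for neuron genes were 2.10% and 3.04%, for salivary gland genes 2.15% and 2.49%, and for hindgut and foregut genes 0.503% and 0.592%. Somatic muscle genes, which are abundant in the whole embryo, gave 18.8% and 15.6%. The intervals cover counting error only. The midgut marker lists were thus seen more often in the selected nuclei at equal depth, yet the great majority of selected nuclei showed no such pair of genes, and the nuclei are called selected nuclei below rather than midgut cells.

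Read the other way, 2.01% of nuclei with at least 2 smooth septate junction genes met the rule after thinning to 250 UMIs, against 0.389% of all nuclei, 0.255% of nuclei with 2 neuron genes and 0.322% of those with 2 somatic muscle genes. Only 805 nuclei held 2 glia genes, and 0.497% of them met the rule after thinning, too few nuclei to read a direction. The gene fkh was found in 10.1% of them after thinning, and their median depth before thinning was 4.23 times that of all nuclei. The 3 rule genes differed in this. GATAe was found in 9.95% of the thinned smooth septate junction nuclei and 1.84% of the neuron nuclei, and Ptx1 in 9.19% and 2.63%. For fkh the shares were 5.17% and 3.85%, beside 5.48% of all nuclei, so fkh was not seen more often in smooth septate junction nuclei than in the embryo at large. Before thinning, the median depth was 1.27 times that of all nuclei in the smooth septate junction nuclei and 1.22 times in the neuron nuclei. The neuron shares are the level seen in a cell type outside the gut, where free RNA and true expression of Ptx1 cannot be told apart.

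To ask which other genes differed in these nuclei, UMIs were summed per experiment over the selected nuclei and over 10 comparison nuclei drawn per selected nucleus from the same experiment and 2-h age bin. Homeobox regulators of the midgut (lab, dve), the 3 smooth septate junction genes Ssk, mesh and Tsp2A, the integrin subunit Itgbn and 3 Jonah proteases were higher in the selected nuclei, and germ cell genes, the fat body lipoprotein apolpp and the hemocyte peroxidase Pxn were lower. Of 8276 genes tested over 4 experiments, 2.33% passed an adjusted p of 0.05, with 94 (1.14%) higher and 99 (1.20%) lower in the selected nuclei. The balance depended on the processing, since 34.5% of the calls were higher with DESeq2, 24.02% with all comparison nuclei in 1 sum per experiment and age bin, and 21.6% without experiment 10. The fit without the experiment as a block called 0 genes, so these calls rest on the pairing of the sums within an experiment. Whether the experiments used separate embryo collections was not stated for each, so the spread between them may be in part technical. Experiment 2 entered with 29 selected nuclei and 38473 UMIs, so that 3 counts there are 77.98 CPM, against 584578 to 2472391 UMIs in the others. Without experiment 2 the calls numbered 61.

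The middle midgut gene lab, the Hox gene labial at chr3R:6661427-6678590 on the minus strand, was higher in every experiment. Its level was 296.7, 103.97, 795 and 111.6 CPM in the selected nuclei of experiments 1, 2, 3 and 10. In the comparison nuclei it was 66.3, 75.4, 89.1 and 46.2 CPM. The groups did not overlap, and lab was higher by 2.07 ± 0.29 (log2 fold change ± SE, n = 4 experiments, edgeR adjusted p = 0.00110). A lab UMI was found in 14.2% of selected and 1.47% of comparison nuclei, and the 10 nuclei with the most held 12.03% of its UMIs. Such shares are not at equal depth, since the selected nuclei were deeper. The uncalled gene srp was found in 16.1% of selected and 6.19% of comparison nuclei. For apolpp, which was lower in the selected nuclei, the shares were 52.3% and 30.9%. For dve (defective proventriculus, chr2R:22243963-22286469) the levels were 284.3, 25.99, 573.1 and 137.9 CPM in selected and 118.1, 88.003, 181.3 and 94.5 CPM in comparison nuclei. The groups overlapped and experiment 2 went the other way with a single dve UMI. Its difference was 1.04 ± 0.25 (adjusted p = 0.0418), it was found in 21.1% of selected and 4.06% of comparison nuclei, and it was not called without experiment 1 (0.67, adjusted p = 0.600), 2 or 3, with another draw of comparison nuclei or by DESeq2.

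Of the smooth septate junction genes 3 of 4 were higher, with a median log2 fold change of 1.55 over the list and a median of -0.03 over all genes tested. The membrane protein gene mesh (chr3R:31178389-31195762, minus strand) stood at 347.7, 311.9, 636.4 and 286.8 CPM in selected and 123.4, 25.1, 103.3 and 215.7 CPM in comparison nuclei of experiments 1, 2, 3 and 10. The groups did not overlap, at 1.61 ± 0.31 (adjusted p = 0.0124). Tsp2A, which encodes a tetraspanin of the junction (chrX:1346553-1348143), also had no overlap, with 67.6, 51.98, 54.7 and 36.8 CPM against 22.9, 25.1, 5.80 and 24.9 CPM (1.498 ± 0.345, adjusted p = 0.0356). Ssk (snakeskin, chr3L:20188522-20189779) was at 165.3, 260, 88.95 and 38.8 CPM in selected and 46.7, 12.6, 13.7 and 32.2 CPM in comparison nuclei. Its groups overlapped across experiments, although it was higher within each (1.70 ± 0.38, adjusted p = 0.0310). CG13704, the fourth member, was higher in every experiment but narrowly missed the threshold (1.31 ± 0.33, adjusted p = 0.0520). All 16 tested genes of the pleated septate junction list failed the test, with a median of -0.17. Without experiment 2, none of the 3 junction calls passed (adjusted p = 0.0855 for mesh, 0.0980 for Ssk and 0.0978 for Tsp2A), though their log2 fold changes stayed between 1.40 and 1.48. Without experiment 1 Ssk and Tsp2A were not called either (adjusted p = 0.220 and 0.260), while mesh was, and Ssk was not called with another draw of comparison nuclei (adjusted p = 0.0683).

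**Figure D2:**
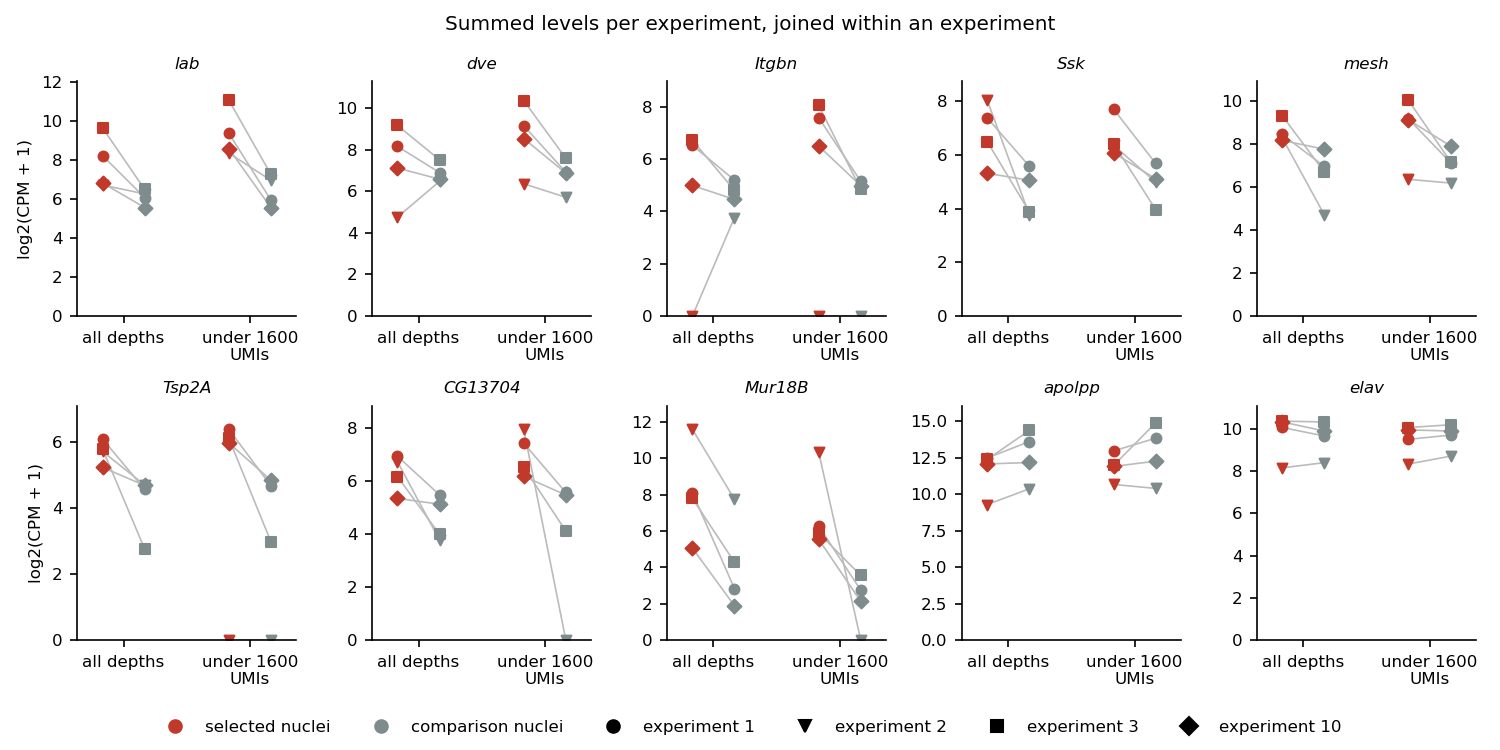
Levels on the scale log2(CPM + 1) in the summed selected (red) and comparison nuclei (grey) of experiments 1, 2, 3 and 10, joined within an experiment, from nuclei of all depths and from nuclei under 1600 UMIs only. The lab, mesh and Tsp2A points of the selected nuclei lie above those of the comparison nuclei at all depths, while elav, a neuron gene that did not pass the test, does not separate them.

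Among the other midgut lists, 2 of 12 midgut transcription factors (lab and dve) were higher and none was lower, with a median of 0.35. The founding endoderm factor srp was not called, at 202.9, 155.95, 246.3 and 140 CPM in selected and 184.4, 270, 288.3 and 124.6 CPM in comparison nuclei (-0.06 ± 0.20, adjusted p = 0.933). It was called in 1 of 22 alternatives, which was added after seeing the data. With 1 comparison nucleus per selected nucleus, drawn by UMI class, srp was higher by 0.77 ± 0.19 (edgeR adjusted p = 0.0170). That fit called 6 of the 12 midgut transcription factors higher, beside 3.72% of all genes tested. This was not particular to midgut lists. It also called 2 of 3 amnioserosa, 2 of 5 Malpighian tubule, 3 of 11 polarity and adhesion and 1 of 5 hindgut and foregut genes higher. Called lower were 3 of 3 germ cell, 2 of 5 somatic muscle and 1 of 2 fat body genes. In the main comparison the posterior gut homeobox gene cad was at 0.11 ± 0.26 (adjusted p = 0.885). Of 6 tested midgut epithelium genes only Itgbn, the betanu integrin subunit found in the midgut (chr2L:21053033-21058044), passed. It had 90.96, 0, 104.3 and 30.7 CPM against 35.6, 12.6, 26.9 and 20.9 CPM, so the groups overlapped through the 0 of experiment 2 (1.23 ± 0.29, adjusted p = 0.0426), and it was not called without experiment 1 or 2 (adjusted p = 0.634 and 0.0871), with another draw of comparison nuclei (0.109), among nuclei of at least 400 UMIs (0.0913) or by DESeq2 (0.0603). Itgbn was the only called member of the polarity and adhesion list as well, where the apical polarity gene crb was at -0.06 ± 0.18 (adjusted p = 0.924). The midgut marker mex1 had too few UMIs to read a direction, with 67, 0, 8 and 27 UMIs in the selected sums (0.43 ± 0.37, adjusted p = 0.623). In the metal handling list 0 of 9 tested genes were called, and the ferritin heavy chain Fer1HCH, a gene of the midgut iron cells among others, was at -0.09 ± 0.16 (adjusted p = 0.831).

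Digestive enzyme genes were mostly below the count filter, with 12 of 48 tested, 3 higher, 0 lower and a median of 1.74 among those tested. The filter keeps a gene that is high enough in 1 class alone, so this median is no result for the list. It was -0.27 over 11 tested genes with 1 comparison nucleus per selected nucleus, by UMI class, and -0.48 over 3 under 1600 UMIs. Without the 16 to 18 h bin it was 2.17, and for GATAe with Ptx1 3.49, over 10 tested genes each. The 3 higher genes were proteases of the Jonah family. Its members are similar in sequence, so the authors' counting could have split or dropped reads between them. Jon99Fii had 120.96, 25.99, 42.8 and 265.7 CPM in selected and 5.86, 106.9, 2.11 and 7.34 CPM in comparison nuclei of experiments 1, 2, 3 and 10 (4.03 ± 0.62, adjusted p = 0.00279). Jon65Ai was at 4.43 ± 0.53 (adjusted p = 0.000415) and Jon65Aiv at 2.81 ± 0.55 (adjusted p = 0.0142). Each was lower in experiment 2. Few nuclei carried them: Jon99Fii was found in 28 selected nuclei, 1 of which held 68.1% of its 937 UMIs, and for Jon65Ai 10 nuclei held 99.3% of 550 UMIs. The Jonah values therefore describe a few deep nuclei, not the selected nuclei at large.

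The 12 genes with the highest fold changes were of this kind as well. They were CG13075, CG34426, CG10560, CG17752, Alp7, CG3690, CG42807, CG32483, salt, Mur18B, CG14292 and CG42235, with log2 fold changes from 3.92 (CG42235) to 5.67 (CG13075). Mur18B, a mucin-related gene on the X chromosome (chrX:19213254-19214938), had 275.7, 3093, 220.7 and 32.4 CPM in selected and 6.11, 213.7, 18.4 and 2.69 CPM in comparison nuclei. It was higher within every experiment, by 4.19 ± 0.32 (adjusted p = 9.34e-06), but the groups overlapped. Only 52 selected nuclei held a Mur18B UMI, and 10 of them held 71.03% of its 939 UMIs. The alkaline phosphatase gene Alp7 was found in 20 selected nuclei, with 58.1% of its 769 UMIs in 1 nucleus (4.72 ± 0.85, adjusted p = 0.00944). Each of the 12 was found in at most 1.45% of selected nuclei, against 14.2% for lab, 19.8% for mesh and 21.1% for dve.

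Lower genes included both tested germ cell markers, which is the list with the lowest median (-2.29). The translational repressor nos had 5.71, 0, 1.71 and 0.404 CPM in selected and 23.9, 88.003, 9.49 and 14.5 CPM in comparison nuclei, with no overlap (-2.84 ± 0.51, adjusted p = 0.00944). The helicase gene vas was at -1.75 ± 0.39 (adjusted p = 0.0318), also with no overlap. The 6 lowest genes by the rule of size were CG7208, CG11350, CG12480, CG14424, Boot and CG14421, from -3.17 (CG7208) to -2.89 (CG14421). Of these, 5 had groups that did not overlap, beside 3.23% of all genes tested, and each was found in fewer than 0.6% of nuclei on either side. Further called genes, singled out after their values were seen, were the maternal transcripts dhd (-2.57 ± 0.29, adjusted p = 0.000302), exu (-2.10 ± 0.38, adjusted p = 0.00944) and bcd (-1.83 ± 0.36, adjusted p = 0.0160). Dhd encodes a germline thioredoxin, exu an RNA localization factor and bcd the anterior morphogen.

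Markers of other tissues were mostly not called. The fat body gene apolpp, which encodes the lipoprotein apolipophorin, had 5705, 623.8, 5351 and 4294 CPM in selected and 12470, 1320, 21146 and 4603 CPM in comparison nuclei (-1.10 ± 0.25, adjusted p = 0.0331). The peroxidase Pxn, made by hemocytes, was lower by 0.97 on the log2 scale (adjusted p = 0.0444). For both the groups overlapped, although every experiment had the same sign. Of the 5 neuron genes none was called and the median was -0.74, and of the 5 somatic muscle genes none was called at a median of -0.72. None of the 7 salivary gland genes was called, where sage, a transcription factor of that gland, was at -0.39 ± 0.37 (adjusted p = 0.651). The lists of hindgut and foregut, Malpighian tubule, visceral mesoderm, glia, epidermis, trachea, amnioserosa and enteroendocrine genes had 0 called members of 5, 5, 7, 3, 4, 3, 3 and 8 tested. Their medians were 0.10, 0.59, -0.26, 0.46, -0.33, -0.72, 0.26 and 0.11 in that order. All 5 Malpighian tubule and all 3 glia genes were positive, and both medians were above the 0.35 of the midgut transcription factors.

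**Figure D3:**
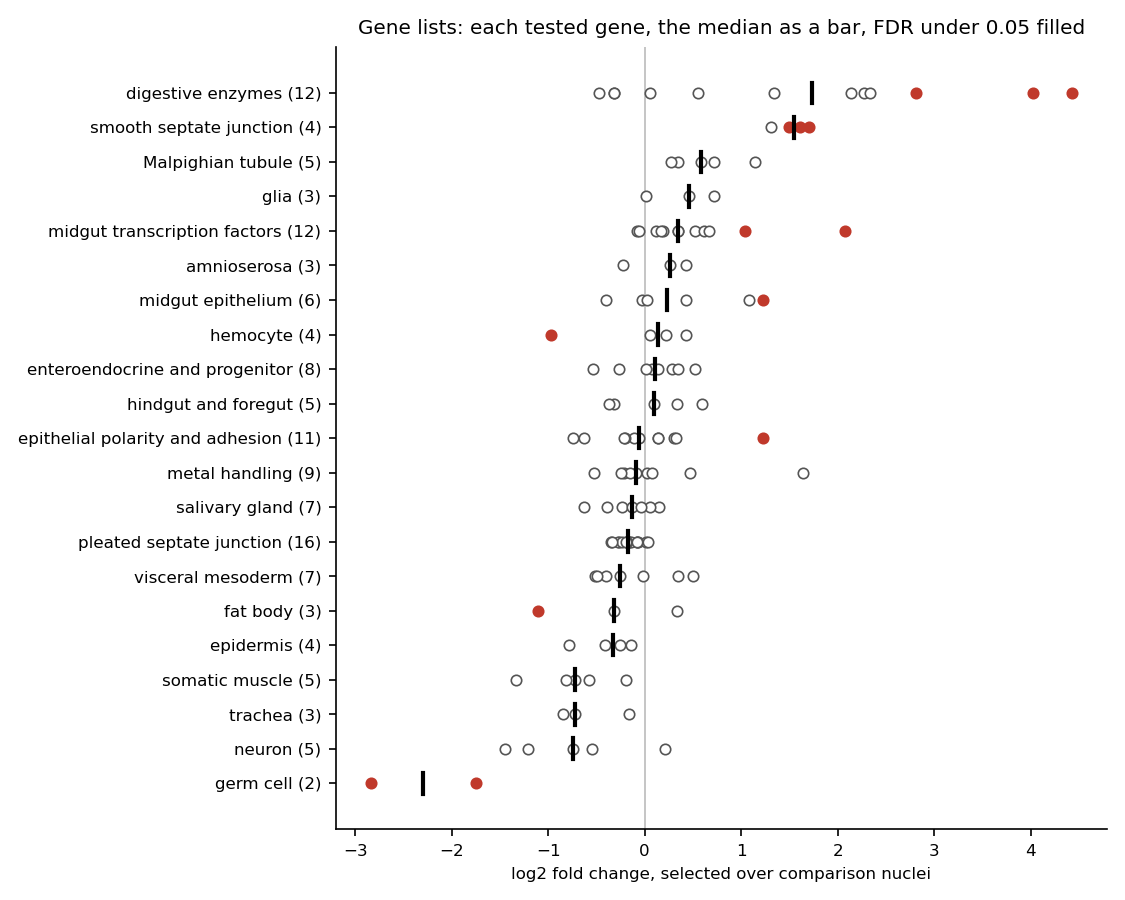
Log2 fold change of selected over comparison nuclei for every tested gene of 21 lists, with the number tested in brackets, the list median as a black bar and genes with an adjusted p under 0.05 filled in red. Smooth septate junction genes all lie to the right of 0 with a median of 1.55, and the 2 germ cell genes lie farthest to the left.

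Since the deep nuclei held most of the selected UMIs, the comparison was also made among nuclei under 1600 UMIs, an alternative chosen after seeing the data. It tested 5959 genes and called 8.17% of them, 3.57% higher and 4.598% lower. The level of lab was then 658.5, 324.5, 2136 and 382.2 CPM in the selected and 60.7, 123.04, 151.7 and 46.01 CPM in the comparison nuclei of experiments 1, 2, 3 and 10, a difference of 3.38 ± 0.23. For dve the difference was 2.27 ± 0.22, for Itgbn 2.46 ± 0.29 and for mesh 2.03 ± 0.22. All 4 smooth septate junction genes were called, CG13704 among them at 1.74 ± 0.30. In midgut transcription factors nub, a POU homeobox gene, joined lab and dve at 1.04 ± 0.24. Mur18B remained called at 3.79 ± 0.39, and the 3 Jonah genes had too few UMIs to be tested. Lists of other tissues moved both ways. Of the neuron genes 3 of 5 were lower, with a median of -0.91 over the list, and of the trachea genes 2 of 3. Of the Malpighian tubule genes 2 of 5 were higher, with a median of 0.95, and of the amnioserosa genes 1 of 3. The differences of lab, dve, Itgbn and the junction genes were thus larger without the deep nuclei, where the sums held 12328 to 851892 UMIs.

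The levels depended on which genes had selected a nucleus. Over all nuclei of a combination, the summed level of the 4 smooth septate junction genes was 236.8 CPM with none of the 3 genes, 196.9 with fkh alone, 715 with Ptx1 alone and 814 with GATAe alone. It was 427.3 CPM with GATAe and fkh, 436.4 with fkh and Ptx1, 1323 with GATAe and Ptx1 and 604.3 with all 3. Over all experiments, nuclei with GATAe or Ptx1 alone, just outside the rule, thus had a higher junction level than nuclei with a pair that included fkh, just inside it. In experiment 3 Ptx1 alone was an exception, at 859 CPM against 936 CPM with GATAe and fkh. For lab the values were 63.9 CPM with none, 64.6 with fkh, 135.7 with GATAe and 555.1 with Ptx1, then 63.9 with GATAe and fkh, 217.9 with fkh and Ptx1, 1010 with GATAe and Ptx1 and 189.1 with all 3. Within experiments 1, 3 and 10 the order of the other groups varied, but GATAe with Ptx1 was above GATAe with fkh in each. GATAe with Ptx1 gave 963, 2134 and 463.7 CPM of lab and GATAe with fkh gave 74.7, 119.3 and 42.5 CPM. The median depth was 799.5 UMIs for GATAe with fkh and 721 for fkh with Ptx1, and it was under 500 for GATAe with Ptx1.

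**Figure D4:**
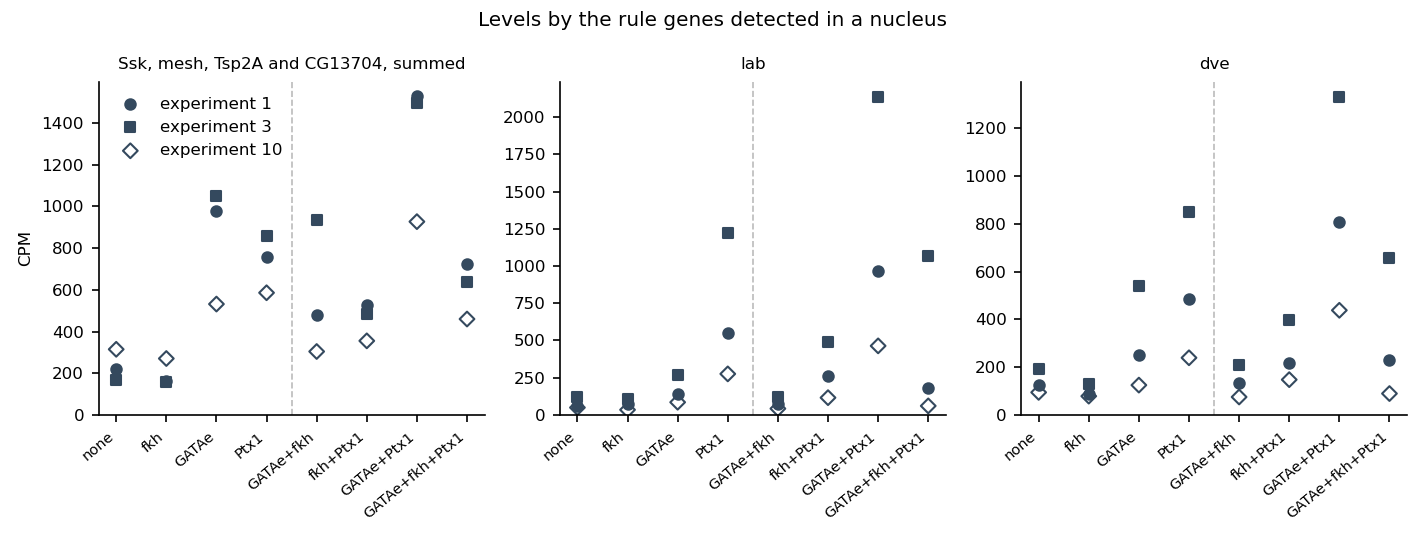
Summed CPM of the 4 smooth septate junction genes, of lab and of dve in nuclei grouped by the rule genes detected, in experiments 1, 3 and 10, with nuclei outside the rule (none or 1 gene) left of the dashed line. Nuclei with GATAe and Ptx1 had the highest lab and dve levels of the 8 groups in each experiment, and for these genes nuclei with GATAe and fkh stood near those with none.

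The same contrast with comparison nuclei was fitted for each pair of genes, also chosen after seeing the data. Nuclei with GATAe and Ptx1 (with or without fkh, 3 experiments) had lab higher by 3.14 ± 0.23 (adjusted p = 0.000120), dve by 1.97 ± 0.29 and mesh by 1.86 ± 0.32. Of 6336 genes 1.82% were called, 1.29% of them as higher and 0.521% as lower. Of 48 digestive enzymes 10 passed the count filter and 6 were called higher. As that filter keeps a gene that is high in 1 class alone, this count is no result for the list. Nuclei with fkh and Ptx1 but no GATAe had lab at 2.10 ± 0.20 (adjusted p = 0.000225), and 88 genes were called. Nuclei with GATAe and fkh but no Ptx1 had 5 called genes, with lab at -0.0155 ± 0.244 and dve at -0.0530 ± 0.201, neither of them called. Differences between these pairs were not tested against each other, apart from the presence of GATAe.

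Selected nuclei with GATAe were tested against those without it within experiments 1, 3 and 10. This split uses UMIs of the selection rule, and by that rule all nuclei without GATAe held fkh and Ptx1, against 62.8% and 47.2% of those with it. Differences that go with GATAe, with fkh, with Ptx1 or with depth cannot be told apart here. Nuclei with GATAe were 67.2%, 68.1% and 64.8% of the selected nuclei there. Their median depth was lower in each experiment, at 1036 against 1339.5 UMIs in experiment 10 and 612.5 against 815 in experiment 3. Of 6581 genes 6 (0.0912%) were called, 1 (0.0152%) higher and 5 (0.0760%) lower with GATAe. Of the lower genes, 3 are neighbours on the minus strand of 3R, namely salt at chr3R:31751825-31754705, CG2187 at chr3R:31755356-31758637 and Smvt, a predicted multivitamin transporter, at chr3R:31759404-31761579. The levels of salt were 25.1, 8.67 and 4.49 CPM with GATAe and 250, 150.95 and 38.3 CPM without it in experiments 1, 3 and 10. The groups did not overlap (-3.36 ± 0.25, adjusted p = 6.97e-07). CG2187 also had no overlap, with 7.19, 17.3 and 5.14 CPM against 105.9, 92.2 and 25.2 CPM (-3.00 ± 0.40, adjusted p = 0.00133).

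For Smvt the difference was -2.16 ± 0.36 (adjusted p = 0.0177), for Mur18B -1.26 ± 0.17 (adjusted p = 0.00133) and for CG6337 -4.34 ± 0.55 (adjusted p = 0.00110), each lower in 3 of 3 experiments with overlapping groups. These genes were found in few selected nuclei, from 28 nuclei for salt and CG6337 to 3.38% of the nuclei for Smvt, and 10 nuclei held 65.4 to 96.1% of the UMIs of CG6337, salt, CG2187, Smvt and Mur18B. The 1 higher gene, hiro, lay outside the rule for named genes because it was higher in only 2 of 3 experiments (1.85 ± 0.33, adjusted p = 0.0298). Among midgut genes mesh came nearest to the threshold, with 407.4, 838 and 310 CPM with and 230, 343.8 and 247.1 CPM without GATAe (0.79 ± 0.15, adjusted p = 0.0548), and lab was at 0.46 ± 0.17 (adjusted p = 0.592). No member of the 20 lists with a tested gene was called. Without the experiment as a block 0 genes were called, and without experiment 10 or 3 the calls numbered 51 and 61.

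The trend over development was measured against the collection window in 20 sums of selected nuclei from 3 experiments. The window itself does not come from expression, but the inferred age of 6 to 18 h that limited the nuclei does. Windows that reach past these limits, such as 3 to 7 h and 16 to 20 h, thus kept only nuclei with an age inferred inside them. Most of the called trends had the same sign in the comparison nuclei. Of 4200 genes tested 1203 (28.6%) were called, 719 (17.1%) rising and the other 11.5% falling. All but 11 of them, that is 1192, had the same sign in the comparison nuclei, and 1110 were also called there with that sign. The 6 steepest rising genes were Vajk4, TwdlF, CG15022, CG9083, Ipod and CG2962, with slopes from 0.76 (CG2962) to 0.83 (Vajk4) in log2 per hour. TwdlF, a Tweedle cuticle protein gene, was at 2.02 to 11.8 CPM in selected nuclei of the 6 to 10 h window and at 699.8 to 1186 CPM in the 16 to 20 h window (0.82 ± 0.06, adjusted p = 7.13e-09). In comparison nuclei of those windows it was at 1.24 to 8.65 and at 393.5 to 1262 CPM. As TwdlF is an epidermal marker, its level in the selected nuclei was not particular to them.

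Falling genes by the same rule were Amy-p, link, Brd, Irk3, sca and msb1l, with slopes from -0.41 (Amy-p) to -0.34 (msb1l). Brd and sca act with Notch signalling in neural and epidermal precursors. The amylase gene Amy-p fell by 0.41 per hour on the log2 scale in selected nuclei and had a slope of 0.16 in comparison nuclei, but 10 nuclei held 67.8% of its UMIs in the selected nuclei. The endoderm factor srp fell as well, from 255.7 to 323.2 CPM at 6 to 10 h to 85.8 to 135.5 CPM at 16 to 20 h (-0.16 ± 0.03, adjusted p = 0.000397), with no overlap between these windows. Comparison nuclei had 172.3 to 419.9 and 92.2 to 186.1 CPM of srp in the same windows.

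Smooth septate junction genes rose with the window in 3 of 4 cases, beside 17.1% of all genes tested. So did 4 of 5 somatic muscle, 3 of 4 neuron, 3 of 4 epidermis and 2 of 3 trachea genes. Of 10 tested midgut transcription factors 1 rose and 2 fell. Among enteroendocrine genes 3 of 6 fell and among amnioserosa genes 2 of 3, beside 11.5% of all genes tested. The mesh slope was 0.28 ± 0.09 (adjusted p = 0.0251) and that of Tsp2A 0.34 ± 0.09 (adjusted p = 0.0108), while Ssk was at 0.14 ± 0.07 (adjusted p = 0.167). In comparison nuclei the slopes were 0.40 for mesh, 0.33 for Tsp2A and 0.31 for Ssk. The mesh level went from 46.8 to 96.1 CPM at 8 to 12 h to 927 to 1809 CPM at 12 to 16 h. In comparison nuclei mesh went from 19.7 to 31.4 CPM to 211.2 to 272.4 CPM. The groups did not overlap in either window.

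Courses of lab and dve were not linear in time. In the 8 to 12 h window lab was at 69.2 to 247.8 CPM in selected and 33.3 to 115.5 CPM in comparison nuclei, and the groups overlapped. In the 12 to 16 h window it was at 757 to 2597 CPM against 77.6 to 145.8 CPM, with no overlap, and in the 16 to 20 h window at 85.8 to 1016 CPM against 41.5 to 77.9 CPM. The slope of lab over all windows was 0.16 ± 0.10 (adjusted p = 0.270). For dve the 12 to 16 h window held 582.9 to 1840 CPM against 127.1 to 198.1 CPM, and the 16 to 20 h window 137.4 to 293.5 CPM against 94.4 to 151.4 CPM, where the groups overlapped (slope 0.18 ± 0.08, adjusted p = 0.116). In experiments 1, 3 and 10 the share of selected nuclei with an fkh UMI was lowest at 12 to 16 h of inferred age. In each of them the selected nuclei also had a lower median depth in the 12 to 16 h window than in the 8 to 12 h and 16 to 20 h windows. Over all experiments it was 1.43 times that of comparison nuclei at 12 to 16 h. At 8 to 12 h it was 2.44 times and at 16 to 20 h 2.41 times. The lab difference was 3.38 among nuclei under 1600 UMIs and 2.07 at all depths. The part of the fkh share and of depth in the courses of lab and dve was not tested.

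**Figure D5:**
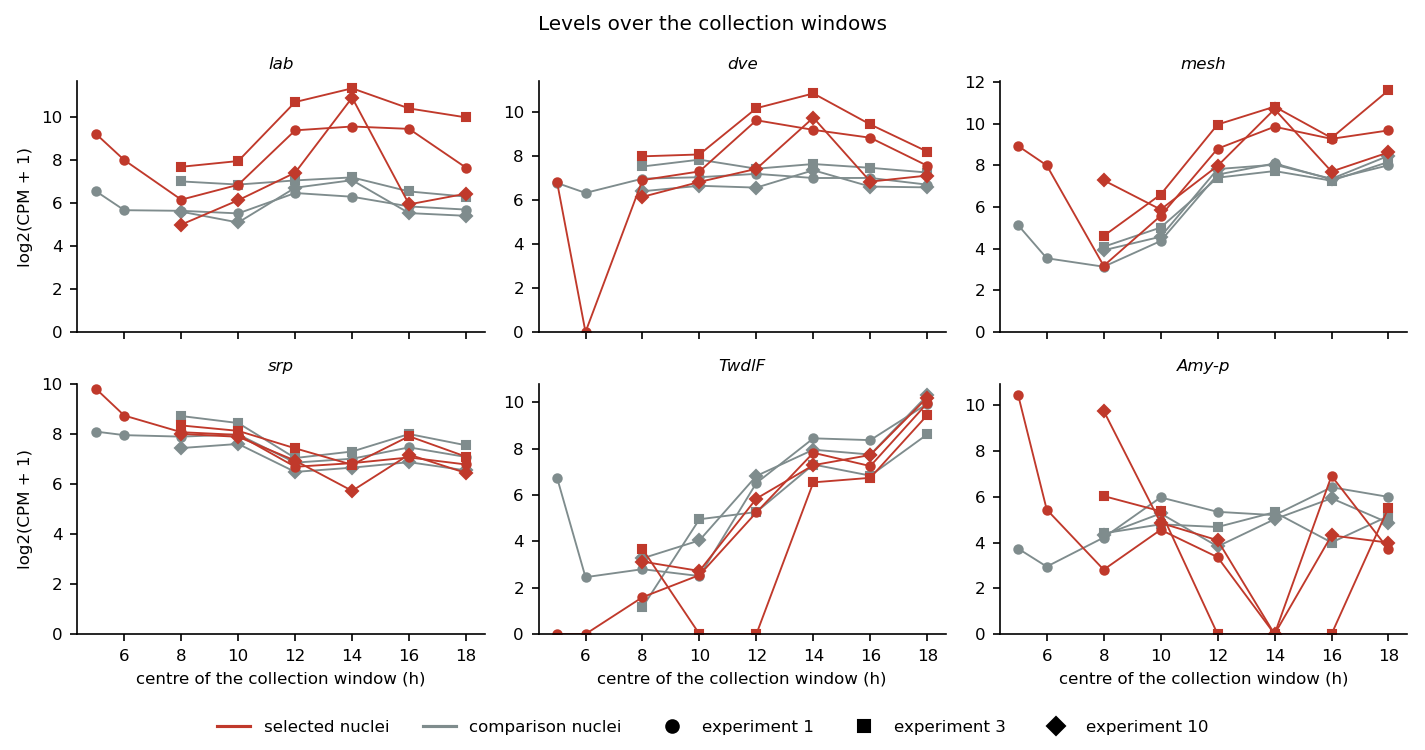
Levels on the scale log2(CPM + 1) against the centre of the collection window in hours for lab, dve, mesh, srp, TwdlF and Amy-p, in selected (red) and comparison nuclei (grey) of experiments 1, 3 and 10. In the 12 to 16 h window lab was at 757 to 2597 CPM in selected nuclei, while TwdlF followed a like course in both.

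The difference of the slopes between selected and comparison nuclei was tested directly. With edgeR 0 of 7284 genes (0%) were called, 4.74% had an unadjusted p under 0.05, the lowest adjusted p was 0.0626, and DESeq2 called 0 as well. For lab the slope was larger by 0.14 ± 0.06 in the selected nuclei (adjusted p = 0.922), for dve by 0.11 ± 0.05 (adjusted p = 0.976), and for Amy-p it was smaller by 0.42 ± 0.10, given in signed form as -0.42 (adjusted p = 0.133). The median SE of a slope difference was 0.05 per hour, and differences several times as large, such as those of lab, dve and Amy-p, did not pass the adjustment over all genes. A linear slope does not describe a level that is highest in the middle windows.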

How the data were processed

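The deposited table holds UMI counts per gene and nucleus, and the nucleus annotation the authors deposited gives UMIs, genes, inferred age, collection window, experiment and the percent of mitochondrial and ribosomal UMIs. Per the submitters' processing notes the tools and builds were STAR 2.7.3a, dm6 and BDGP6. The authors kept nuclei by UMI and gene number and removed doublets with a modified DoubletFinder; no caller was rerun here. Nuclei came from wells, not from single embryos, and experiment (7 in all) was the unit. A script found 347601285 UMIs, a median of 399 per nucleus, and 44153 nuclei over 10% ribosomal UMIs, a limit the methods state, though the deposited column may be computed over another gene set. Of 118646 distinct barcodes 62673 (52.8%) occurred in more than 1 experiment, and nucleus names were all distinct.

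UMIs were summed per experiment and class (at least 20 nuclei a sum) and tested with edgeR 4.0.16 (R 4.3.3) by the quasi-likelihood test with filterByExpr, TMM factors and Benjamini-Hochberg adjustment at 0.05 over all genes tested, with the experiment, or the experiment and window, as a block. Rule genes were left out of every fit. Same-experiment sums deviated together (r from 0.42 to 0.70) and sums of different experiments did not (r from -0.42 to 0.05), so the pairing by experiment was kept. Each fit was tested on simulated counts with known changes. Genes were named by rule: in the main comparison the 12 highest and 6 lowest called genes with the same sign in every experiment and at least 20 CPM, plus up to 4 called genes of each list, and a fixed set of midgut genes. For trends the rule took 6 each way at 50 CPM, and for GATAe nuclei up to 5 each way. Members and lists were chosen with earlier results of these data known. Alternatives tried were scaling, count filter, DESeq2 1.42.0, block, depth, draws of comparison nuclei, gene combinations, age bins and leaving out each experiment. Gene positions came from Ensembl BDGP6.54, release 115. Intervals are exact Clopper-Pearson at 95%.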

Additional observations from a re-analysis of the deposited data

Results flagged for a closer look

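In 17 of 74 groups of 4 summed levels 1 experiment lay far from the other 3 by Dixon's criterion at 95%, where chance gives about 1 in 20. Experiment 2, with 29 selected nuclei, was the distant one in 16 of them. There 3 counts are 77.98 CPM in the selected and 18.9 CPM in the comparison sum, and its values for Boot, CG13075, CG10560 in comparison nuclei, CG3690 and CG32483 lie below these levels, at 0 to 2 UMIs.

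In its selected nuclei CG10560 was at 233.9 CPM (3.24 to 18.8 in the others), salt at 675.8 CPM (16.99 to 100.96), Mur18B at 3093 CPM (32.4 to 275.7), CG14292 at 2079 CPM (35.998 to 291.5) and Boot at 25.99 CPM (0.952 to 3.42). In its comparison nuclei CG13075 was at 0 CPM (0.498 to 0.537 in the others), CG10560 at 12.6 CPM (0 to 0.358) and Alp7 at 50.3 CPM (1.05 to 5.19). There CG3690 was at 6.29 CPM (0.895 to 1.05), CG42807 at 31.4 CPM (0.179 to 1.58) and CG32483 at 6.29 CPM (0.527 to 0.872). Mur18B was at 213.7 CPM (2.69 to 18.4), CG14292 at 207.4 CPM (2.51 to 9.84) and CG7208 at 113.1 CPM (10.5 to 19.2). CG14424 was at 150.9 CPM (6.98 to 31.2) and Jon99Fii at 106.9 CPM (2.11 to 7.34). In experiment 3 Tsp2A was at 5.80 CPM in comparison nuclei, against 22.9 to 25.1 CPM in the others.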

How the results depend on the processing

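Between selected and comparison nuclei 2.33% of the genes tested were called, 48.7% of the calls being higher. Library sizes without TMM gave 3.65% (40.7% higher), no count filter 4.07%, at least 50 nuclei a sum 0.711%, comparison nuclei drawn also by UMI class 5.13%, all comparison nuclei in 1 sum per experiment and age bin 22.9% (24.02% higher), another seed 1.51% and all 3 rule genes 0.401%; the fit with no replicate block gave 0. Alternatives added after seeing the data gave 1.82% (GATAe and Ptx1), 0.0723% (GATAe and fkh without Ptx1), 1.31% (fkh and Ptx1), 7.95% (without 16 to 18 h), 8.17% (under 1600 UMIs) and 9.27% (1 comparison nucleus each). DESeq2 called 3.15% (34.5% higher) and moved the median log2 fold change of all genes from -0.03 to -0.13; without the filter it was -0.20. Leaving out 1 experiment gave 0.711% (experiment 2) to 11.0% (experiment 10, 21.6% higher), with 1.17% without experiment 1. For GATAe with fkh, lab reversed to -0.0155 and dve to -0.0530. With 1 comparison nucleus each srp reversed to 0.77 and was called (edgeR adjusted p = 0.0170).

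The trend called 28.6% of genes (59.8% of the calls rising), against 15.5% with no filter, 34.2% over age bins, 12.9% with GATAe and Ptx1, and 14.8% (experiment 1) to 18.5% without 1 experiment, with 15.2% without experiment 10. Library sizes gave 30.5% (50.7% rising), DESeq2 36.9% (52.7% rising) and the fit with no block 21.4%. CG34426 reversed to 0.66 with at least 50 nuclei and 0.50 over age bins, and Mur18B to 0.52 over age bins. The slope difference called 1 gene by library sizes, 20 with no filter, 3 with at least 50 nuclei, 3 with at least 400 UMIs, 3 over age bins and 0 to 3 without 1 experiment. The GATAe comparison called 91 genes with no filter, 3 at 400 to 1600 UMIs, 0 with no replicate block, and 7 to 61 without 1 experiment. Of the values for named genes that were called, 75.3% in the first comparison, 91.2% in the trend and 75.5% in the GATAe comparison kept direction and call, and 24.3%, 8.77% and 24.5% lost the call. Not all alternatives counted here were separate fits. Asking for at least 50 nuclei a sum left the GATAe comparison unchanged, and in the first comparison it was the fit without experiment 2. For named genes that were not called, such as srp and cad, 20.6% of values in the first comparison and 7.98% in the trend had the other sign. The cause was not tested. Depth limits all rare genes, since most nuclei hold under 400 UMIs.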

Other observations

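Among the genes called higher in the selected nuclei that no list held, 4 encode subunits of the vacuolar proton pump, which acidifies compartments and, in the middle midgut, the lumen. They were singled out after their values were seen. Of 20 tested genes with a symbol that starts with Vha, 4 were called higher and 0 lower, with a median log2 fold change of 0.69, beside 1.14% of all genes tested called higher. Vha16-1 had a mean of 3719 CPM in selected and 1615 CPM in comparison nuclei (1.05 ± 0.20, edgeR adjusted p = 0.0141) and Vha68-2 392.8 and 174.97 CPM (1.01 ± 0.24, adjusted p = 0.0393), both with no overlap between the groups. Vha26 was at 1.09 ± 0.20 (adjusted p = 0.0119) and Vha44 at 0.90 ± 0.19 (adjusted p = 0.0200), with overlapping groups. All 4 had the same sign in every experiment.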
